A study of Oryza sativa with 12 samples.

Results

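Regulators of greening were followed in developing rice embryos, 7 of the 38978 genes in the count table. They were taken from a list of gene identifiers, drawn up with earlier results of these data known, and comprise 2 GOLDEN2-LIKE (GLK) genes, *OsGLK1* (Os06g0348800) and *OsGLK2* (Os01g0239000), 2 GATA genes, *Cga1* (Os02g0220400) and *OsGNC* (Os06g0571800), and 3 HY5-like bZIP genes, Os02g0203000, Os01g0174000 and Os06g0601500. All libraries came from Nipponbare embryos, of the wild type (NIP) or of *Oslec1-1*, a CRISPR/Cas9 line of *OsLEC1* whose frameshift gives a shortened protein. Embryos were taken at 7 days after pollination (7 DAP, the early stage EE) and at 25 DAP (the late stage LE) from plants in a 16 h light and 8 h dark cycle, with 3 replicates in each of the 4 groups. Embryos were pooled for RNA, a single mutant line was sequenced, and the replicates are described as biological by the study, with no further detail in the labels, so that *p*-values measure only the spread between these samples.

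GLK proteins are GARP-type transcription factors that activate nuclear genes for chlorophyll synthesis, light-harvesting antenna proteins and photosystem assembly, and plants commonly carry a pair of them. Cga1 and GNC are GATA factors that, in Arabidopsis and rice, respond to light, nitrogen and cytokinin and promote chloroplast development. HY5 is known from Arabidopsis as a bZIP factor that promotes photomorphogenesis in the light and is removed through the COP1 ubiquitin ligase in the dark. LEC1 is an NF-YB subunit of the trimeric NF-Y factor and a regulator of embryo development and seed maturation.

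On IRGSP-1.0, *OsGLK1* lies on the plus strand of chromosome 6 from 14078261 to 14082203, and *OsGLK2* on the minus strand of chromosome 1 from 7686901 to 7693984. *Cga1* lies on the minus strand of chromosome 2 from 6705753 to 6707433, and *OsGNC* on the plus strand of chromosome 6 from 22155054 to 22157054. Of the HY5-like genes, Os02g0203000 lies on the minus strand of chromosome 2 from 5760788 to 5763128, Os01g0174000 on the minus strand of chromosome 1 from 3811287 to 3812735, and Os06g0601500 on the plus strand of chromosome 6 from 23773207 to 23776880. None of the 7 overlaps another gene of the files, with 0 overlapping genes for each. The symbols *OsGLK1* and *OsGLK2* were found in RefSeq on the same chromosomes, with gene lengths differing by 1 base from those of the files. The names of the other 5 genes were used as given, without a second annotation to check them against.

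Library totals lay between 16113922 and 27213238 counts, and the limit that a count of 0 sets is 3 counts, which is between 1.1e-05% and 1.86e-05% of the library total and covers counting error only. The 50 most abundant genes took 40% to 42.7% of the counts in the wild type at EE and 15.5% to 24% in the other 3 groups. Without a correction for this, scaling by library size alone, the median log2 fold change of all genes between *Oslec1-1* and the wild type at EE shifted by 0.68. Levels are therefore given as CPM, the counts of a gene relative to the library total, after TMM scaling. Levels of different genes are compared as FPKM, which accounts for transcript length. Ratios of counts of 2 genes within a library are also given, and these do not account for length. A gene rose or fell where its Benjamini-Hochberg adjusted *p* over all genes tested in edgeR was under 0.05, and it is called a DEG where the absolute log2 fold change was also at least 2. As the embryos were sequenced whole, fewer cells of a type and less RNA per cell cannot be told apart.

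*OsGLK1* was nearly silent in the wild type and strongly expressed in *Oslec1-1* at both stages. Its level in the 3 wild type libraries at EE was 0.756, 1.88 and 0.979 CPM, from 11, 22 and 12 counts. In the *Oslec1-1* libraries at EE the level was 17.4, 16.6 and 15.2 CPM, from 416, 327 and 338 counts. At LE the wild type libraries held 2.59, 2.03 and 2.28 CPM and the *Oslec1-1* libraries 30.7, 23.6 and 24.3 CPM. Every mutant library exceeded every wild type library, and the lowest mutant level at EE was several times the highest wild type level at LE. *OsGLK1* rose 13.8-fold at EE (log2 fold change 3.79, SE 0.26, adjusted *p* = 1.61e-06) and 11.6-fold at LE (3.54, SE 0.16, adjusted *p* = 1.07e-05), and it was a DEG at both stages.

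**Figure D1:**
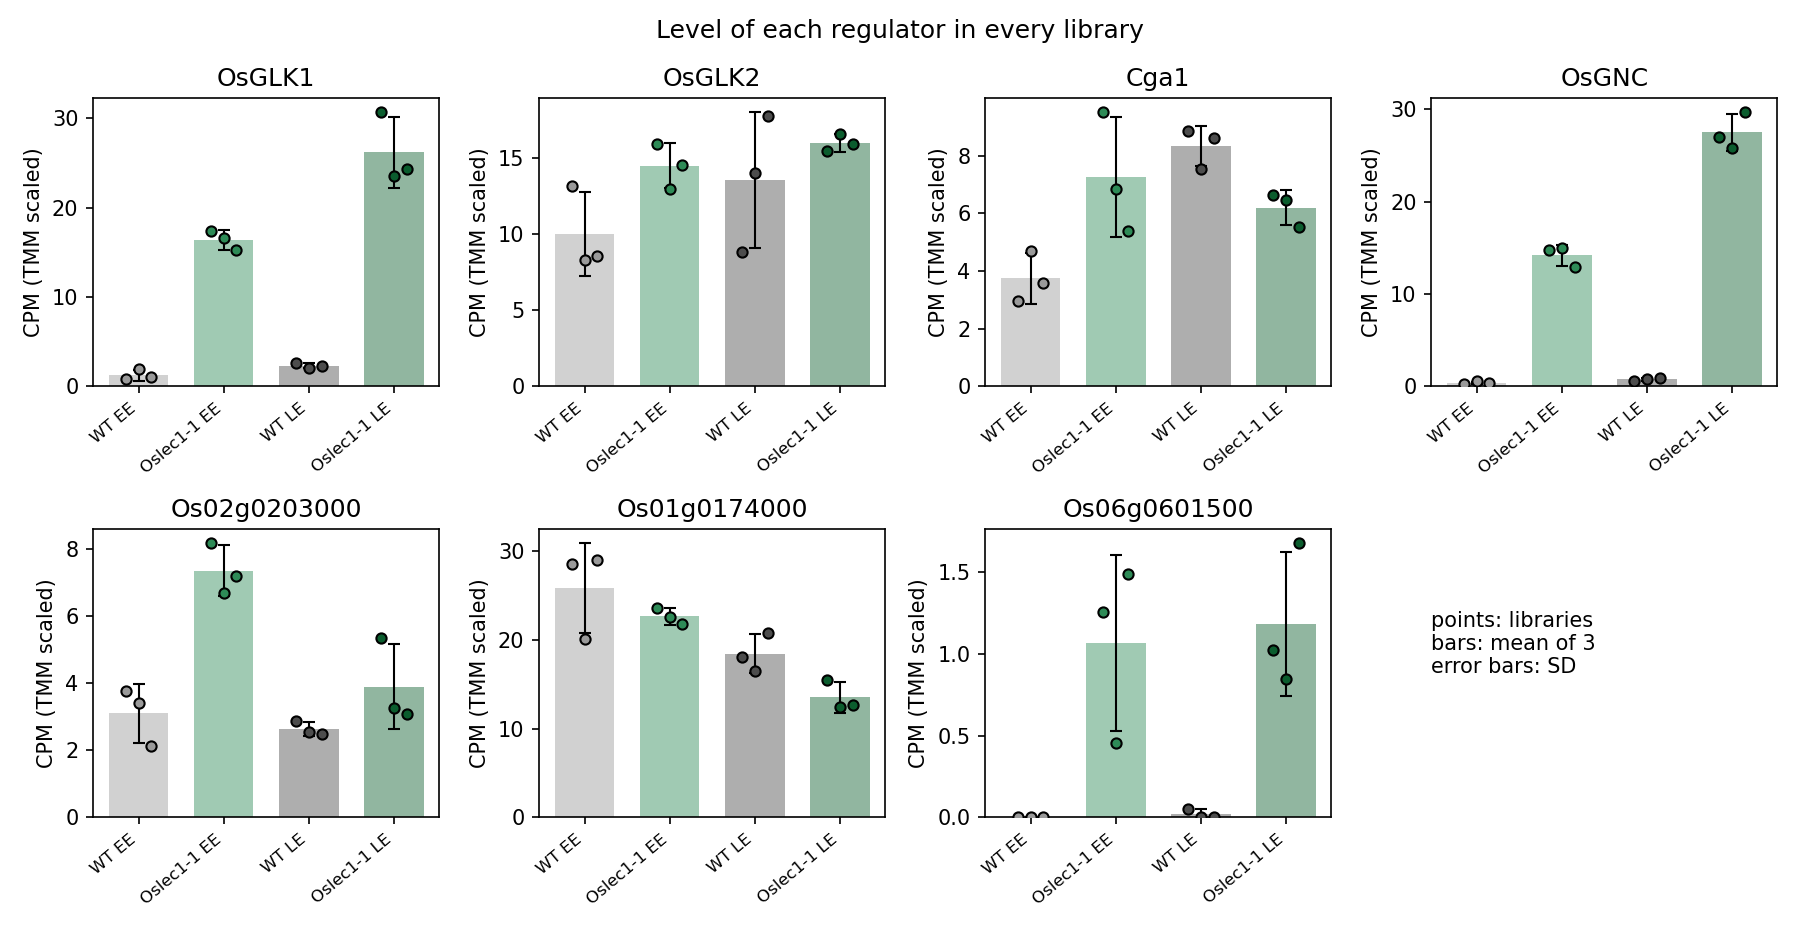
CPM after TMM scaling (linear vertical axes) of each of the 7 regulators in the 4 groups on the horizontal axis; points are libraries, bars the mean of 3 and error bars the SD. *OsGLK1* and *OsGNC* are at 15.2 CPM or more and 12.9 CPM or more in every *Oslec1-1* library and at 2.59 CPM or less and 0.856 CPM or less in every wild type library, whereas the groups overlap for *OsGLK2*.

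*OsGLK2*, the second GLK gene, differed much less. Its level at EE was 13.2, 8.28 and 8.56 CPM in the wild type and 16.0, 13.01 and 14.6 CPM in *Oslec1-1*, where the highest wild type library lay within the mutant range. It rose 1.44-fold at EE (log2 fold change 0.53, SE 0.19, adjusted *p* = 0.0354). This call did not hold in the fit on all 12 libraries (adjusted *p* = 0.0683), nor without replicate 2 or 3 of the wild type or replicate 1 or 3 of *Oslec1-1* (adjusted *p* between 0.0883 and 0.119). At LE the wild type libraries held 8.86, 14.1 and 17.8 CPM and the *Oslec1-1* libraries 15.5, 16.6 and 16.0 CPM, all within the wild type range. The log2 fold change at LE was 0.26 (95% interval -0.18 to 0.70, adjusted *p* = 0.374) and did not pass the test.

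The composition of the GLK pair was therefore different in the 2 genotypes. Within a library, the ratio of *OsGLK1* to *OsGLK2* counts does not depend on scaling. It was 0.0573, 0.227 and 0.114 in the wild type at EE, and 1.09, 1.28 and 1.04 in *Oslec1-1*. At LE it was 0.293, 0.145 and 0.128 in the wild type, and 1.98, 1.42 and 1.52 in *Oslec1-1*. *OsGLK2* counts exceeded *OsGLK1* counts in all 6 wild type libraries and the reverse held in all 6 mutant libraries. The mean log2 ratio differed by 3.31 at EE and 3.21 at LE, each with an exact permutation *p* of 0.1 (two-sided), the smallest that 3 libraries against 3 allow, and 0.15 after adjustment over the 12 ratio comparisons made. In FPKM, *OsGLK1* made up 14.1% ± 7.49 (SD, n = 3) of the GLK sum in the wild type at EE and 58.7% ± 3.53 in *Oslec1-1*, and 20.1% ± 7.59 against 66.5% ± 3.49 at LE. The GLK sum at EE lay between 2.35 and 3.72 FPKM in wild type libraries and between 13.6 and 14.8 FPKM in mutant libraries, and at LE between 4.58 and 7.86 and between 17.9 and 21 FPKM. FPKM has no TMM scaling. In a fit on log2(FPKM + 0.1) the median log2 fold change of all genes between the genotypes at EE shifted by 0.655. Part of the difference between the sums at EE is therefore one of scaling.

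**Figure D2:**
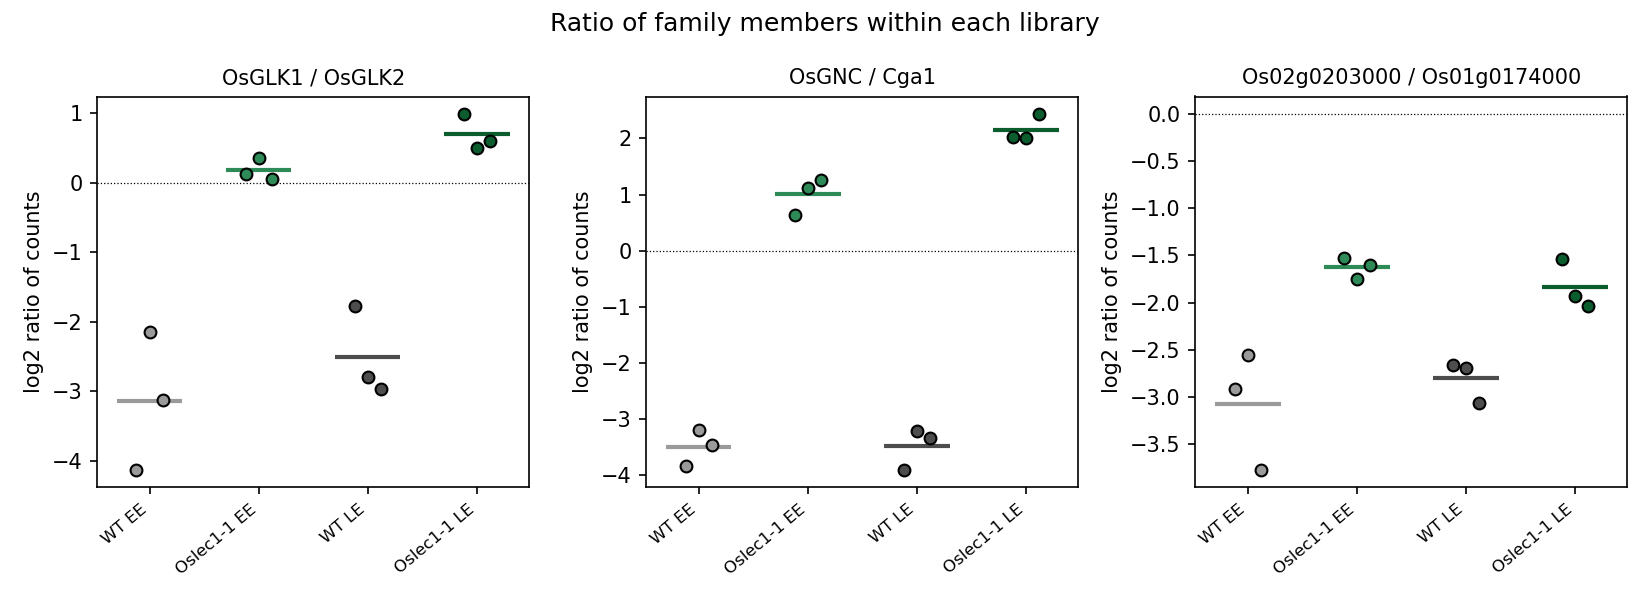
Log2 ratio of the counts of 2 family members within each library (vertical axes) by group (horizontal axes); points are libraries and lines the means of 3. For *OsGLK1* over *OsGLK2* and *OsGNC* over *Cga1* the ratio is below 0 in all 6 wild type libraries and above 0 in all 6 *Oslec1-1* libraries, while Os02g0203000 over Os01g0174000 stays below 0 in all 12.

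*OsGNC* showed the greatest difference among the 6 members tested at EE. The wild type libraries at EE held only 3, 6 and 4 counts of *OsGNC*, or 0.206, 0.512 and 0.326 CPM. The *Oslec1-1* libraries at EE held 353, 294 and 287 counts, or 14.7, 14.9 and 12.9 CPM. At LE the wild type had 0.595, 0.814 and 0.856 CPM and *Oslec1-1* 26.96, 25.8 and 29.7 CPM. The wild type at EE was thus close to the limit of 3 counts, the wild type at LE had 11, 22 and 21 counts, and the genotypes did not overlap at either stage. *OsGNC* rose 41.0-fold at EE (log2 fold change 5.36, SE 0.26, adjusted *p* = 1.78e-07) and 36.3-fold at LE (5.18, SE 0.15, adjusted *p* = 2.37e-06), and was a DEG at both stages. At EE it passed the filter on low counts only through the mutant libraries, so the call there adds nothing to the counts. The size of these folds is less certain than their direction, as counts in the wild type at EE were few. With limma and 1 added to FPKM the log2 fold change of *OsGLK1* at EE was 2.75 and that of *OsGNC* 3.003. With 0.1 added they were 4.16 and 5.52. Mean wild type FPKM at EE was 0.39 and 0.08, so the smaller values with 1 added are part of how that setting is built.

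*Cga1*, the second GATA gene, went in opposite directions at the 2 stages. At EE its level was 2.95, 4.70 and 3.59 CPM in the wild type and 9.52, 6.86 and 5.40 CPM in *Oslec1-1*, and the groups did not overlap. It rose 1.95-fold (log2 fold change 0.96, SE 0.26, adjusted *p* = 0.0109), a call that was lost without wild type replicate 1 (adjusted *p* = 0.0525). At LE its level was 8.86, 7.55 and 8.60 CPM in the wild type and lower in *Oslec1-1*, at 6.63, 6.45 and 5.52 CPM. It fell by 0.40 on the log2 scale (SE 0.13, adjusted *p* = 0.0435). The fall at LE was lost in 7 of 9 alternatives, with DESeq2 giving an adjusted *p* of 0.0667, and on leaving out any library but *Oslec1-1* replicate 1 (adjusted *p* between 0.0499 and 0.14 over the 6).

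The 2 stages differed for *Cga1* by the test of the difference itself. The effect of *Oslec1-1* was lower at LE than at EE by 1.39 on the log2 scale (difference -1.39, SE 0.31, adjusted *p* = 0.00417), and this held in all 8 alternatives and without each of the 12 libraries. Of the 7 members tested for such a difference, *Cga1* was the 1 that passed, where 16.7% of the 24903 genes tested had a lower effect at LE and 16.7% a higher one (4166 and 4155 genes, or 10847 and 1881 with library size alone). For *OsGLK1* the difference of effects was -0.28 (95% interval -0.91 to 0.36, adjusted *p* = 0.541), and for *OsGNC* it was -0.21 (-0.86 to 0.44, adjusted *p* = 0.705). Other settings added calls. For Os01g0174000, at -0.25 in the main fit, the difference passed with library size alone (-0.80, adjusted *p* = 0.00663) and with limma and 0.1 or 1 added to FPKM (-0.82 and -0.76, adjusted *p* = 0.0145 and 0.0134). Os02g0203000, at -0.66, passed with library size alone (-1.20, adjusted *p* = 0.0164) and without *Oslec1-1* LE replicate 1 (-0.97, adjusted *p* = 0.0355). With library size alone *OsGLK1* passed (-0.82, adjusted *p* = 0.0493), and with limma and 1 added to FPKM *OsGNC* passed in the other direction (0.56, adjusted *p* = 0.00752). Intervals of this width do not show that the effects on *OsGLK1* and *OsGNC* were equal at the 2 stages.

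The GATA pair changed in composition as the GLK pair did. The ratio of *OsGNC* to *Cga1* counts was 0.0698, 0.109 and 0.0909 in the wild type at EE and 1.55, 2.18 and 2.39 in *Oslec1-1*. At LE it was 0.0671, 0.108 and 0.0995 in the wild type and 4.07, 4 and 5.39 in *Oslec1-1*. *Cga1* was the major GATA transcript of the 2 in every wild type library and *OsGNC* in every mutant library, in counts and in FPKM. The mean log2 ratio differed by 4.50 at EE and 5.63 at LE, and between LE and EE it differed by 1.15 in *Oslec1-1* and by 0.02 in the wild type. The first 3 of these differences had an exact permutation *p* of 0.1 and the last a *p* of 1 (adjusted 0.15 and 1). The sum of the pair at EE lay between 1.19 and 1.99 FPKM in wild type libraries and between 10.7 and 14.6 FPKM in mutant libraries, and at LE between 4.93 and 5.67 and between 18.1 and 19.4 FPKM. As for the GLK sum, these values have no TMM scaling, and part of the difference at EE is one of scaling.

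**Figure D3:**
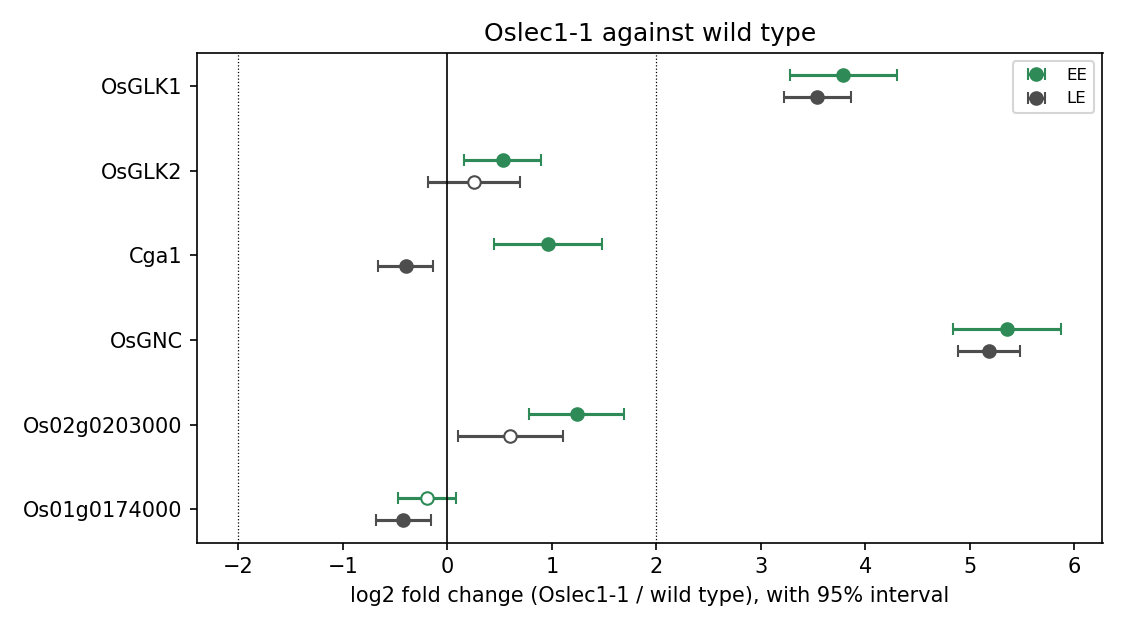
Difference between *Oslec1-1* and the wild type as log2 fold change (horizontal axis) for 6 regulators (vertical axis) at EE (green) and LE (grey), with 95% intervals; filled points passed an adjusted *p* of 0.05 and dotted lines mark a log2 fold change of 2 in either direction. *OsGLK1* and *OsGNC* lie beyond the limit at both stages, *Cga1* is at 0.96 and -0.40, and Os06g0601500 is left out because it was not tested at EE.

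The 3 HY5-like genes each behaved differently. Os01g0174000 was well expressed in all groups, at 28.6, 20.1 and 29.0 CPM in the wild type and 23.6, 22.6 and 21.8 CPM in *Oslec1-1* at EE, within the wild type range. Its log2 fold change at EE was -0.19 (95% interval -0.47 to 0.08, adjusted *p* = 0.27). The direction at EE depended on the scaling, and with library size alone it rose by 0.49 (adjusted *p* = 0.0124). Without wild type replicate 2, in contrast, it fell by 0.35 (adjusted *p* = 0.0196). At LE it was at 18.1, 16.5 and 20.8 CPM in the wild type and at 15.5, 12.4 and 12.7 CPM in *Oslec1-1*, without overlap. It fell by 0.42 on the log2 scale at LE (SE 0.13, adjusted *p* = 0.0365), and the call was lost with library size alone (adjusted *p* = 0.0873), with limma on FPKM (0.0695 and 0.0691) and without wild type replicate 3 or *Oslec1-1* replicate 2 or 3 (adjusted *p* between 0.0578 and 0.124).

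Os02g0203000 was higher in *Oslec1-1* at EE. Its level was 3.78, 3.42 and 2.12 CPM in the wild type and 8.19, 6.71 and 7.20 CPM in the mutant, a rise of 2.36-fold (log2 fold change 1.24, SE 0.23, adjusted *p* = 0.00133). At LE it was 2.86, 2.55 and 2.49 CPM in the wild type and 5.35, 3.26 and 3.09 CPM in *Oslec1-1*, where replicate 1 stood above the other two. The groups did not overlap at LE, but the log2 fold change of 0.60 (95% interval 0.10 to 1.11) did not pass the test (adjusted *p* = 0.0905). The ratio of Os02g0203000 to Os01g0174000 counts at EE lay between 0.073 and 0.17 in wild type libraries and between 0.297 and 0.346 in mutant libraries, and at LE between 0.12 and 0.158 and between 0.243 and 0.345. The mean log2 ratio differed by 1.46 at EE and 0.97 at LE, each with an exact permutation *p* of 0.1 (adjusted 0.15). Unlike the GLK and GATA pairs, the order of the 2 genes was the same in all 12 libraries, with fewer Os02g0203000 counts.

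Os06g0601500, the rarest of the 7, was detected almost only in *Oslec1-1*. It had 0 counts in each wild type library at EE and 30, 9 and 33 counts in *Oslec1-1*. At LE it had 1, 0 and 0 counts in the wild type and 32, 22 and 44 counts in *Oslec1-1*. At EE it did not pass the filter on low counts and was not tested in the main fit, and against a floor of 3 counts over the wild type group it was at least 14.0-fold higher in *Oslec1-1*. Without the filter its adjusted *p* at EE was 0.000439, which rests on the mutant libraries alone and adds nothing to the counts. At LE the ratio between 98 counts in *Oslec1-1* and 1 count in the wild type was 82 after scaling, with a 95% counting interval from 14.4 to 3270. The fit at LE called it a DEG (adjusted *p* = 0.000836), but it passed the filter only through the libraries in which it is high, so the call adds nothing to the counts. Its FPKM in *Oslec1-1* lay between 0.204 and 0.785 at EE and between 0.478 and 1.11 at LE, and was listed at 0 in every wild type library, including that with 1 count.

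Counted over the members, 5 of the 6 tested rose at EE and 0 fell, where 30.3% of the 23034 genes tested rose and 26.7% fell, and 2 were upregulated DEGs and 0 downregulated DEGs, where 10.9% and 3.92% of genes were. With library size alone, 14986 genes rose and 2061 fell at EE, against 6979 and 6150 with TMM. Over the 9 alternatives the log2 fold change at EE lay between 0.53 and 1.20 for *OsGLK2*, between 0.94 and 1.72 for *Cga1* and between 1.24 and 1.91 for Os02g0203000. At LE, 3 of 7 rose and 2 fell, where 25.6% of the 24065 genes tested rose and 21.3% fell (6171 and 5135 genes, or 7200 and 3860 with library size alone), and the 3 that rose, Os06g0601500 with the restriction above among them, were DEGs, where 8.29% of genes were upregulated and 1.24% downregulated DEGs. *OsGNC* at EE and Os06g0601500 at LE had few counts in the wild type (3 to 6, and 0 or 1) and owe their high means to the mutant libraries, so that these counts describe the members and are not a test of them as a group. A median over the members is not given for the same reason.

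Compared per transcript length, the order of the 7 regulators differed between the groups. In the wild type at EE, Os01g0174000 stood first at 11.1 ± 2.88 FPKM (SD, n = 3), apart from *OsGLK2* at 2.55 ± 0.79, which overlapped Os02g0203000 at 1.75 ± 0.57, itself overlapping *Cga1* at 1.39 ± 0.39. *OsGLK1* followed at 0.39 ± 0.19 FPKM, and *OsGNC* was listed at 0, 0.16 and 0.0877 FPKM. In *Oslec1-1* at EE, Os01g0174000 was again first at 15.2 ± 0.61 FPKM, followed by *OsGLK1* at 8.31 ± 0.15 and *OsGNC* at 7.67 ± 0.52, which did not overlap each other. Below them came Os02g0203000, *OsGLK2* and *Cga1* between 3.61 and 7.33 FPKM, each overlapping the gene before it, *OsGNC* included. In the wild type at LE the order was Os01g0174000 at 11.6 ± 1.24, *OsGLK2* at 5.06 ± 1.73, *Cga1* at 5.03 ± 0.42, Os02g0203000 at 1.75 ± 0.14, *OsGLK1* at 1.17 ± 0.13 and *OsGNC* at 0.34 ± 0.05 FPKM, and of these neighbours *OsGLK2* and *Cga1* overlapped. In *Oslec1-1* at LE, *OsGNC* at 14.9 ± 1.12 and *OsGLK1* at 12.9 ± 1.71 FPKM, which overlapped, stood above Os01g0174000 at 9.18 ± 1.10, *OsGLK2* at 6.47 ± 0.17, *Cga1* at 3.94 ± 0.53 and Os02g0203000 at 3.19 ± 1.47 FPKM. *OsGNC* thus moved from sixth of the 7 in the wild type to first in *Oslec1-1* at LE.

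**Figure D4:**
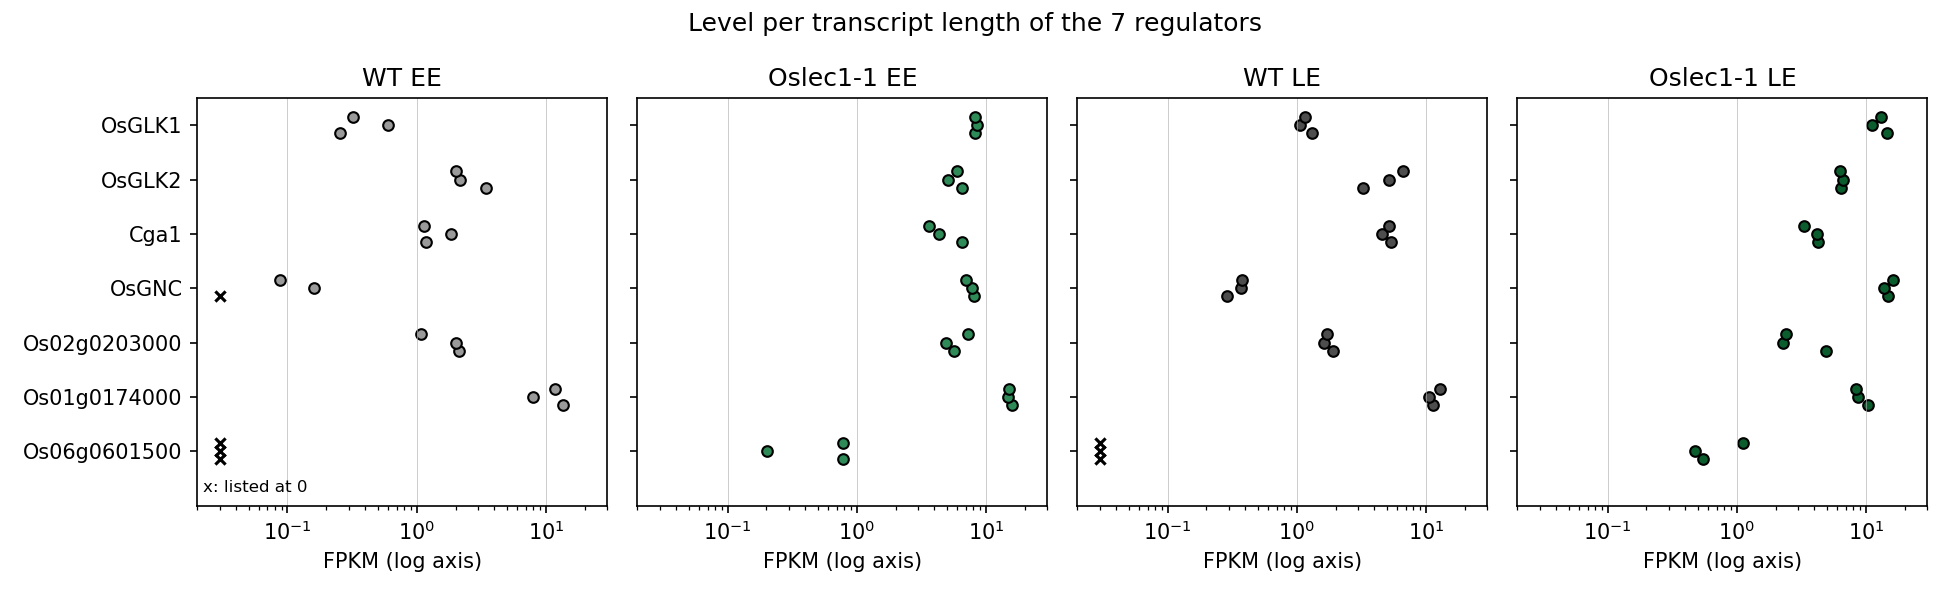
FPKM on a log axis (horizontal) of the 7 regulators (vertical) in each group; points are libraries and crosses at the left edge mark libraries listed at 0. *OsGLK1* and *OsGNC* lie below *OsGLK2* and *Cga1* in the wild type and above them in *Oslec1-1* at both stages.

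Over the 4 groups, the level of *OsGLK1* in CPM was highest in *Oslec1-1* at LE (26.2 ± 3.95), followed by *Oslec1-1* at EE (16.4 ± 1.10), the wild type at LE (2.30 ± 0.28) and the wild type at EE (1.20 ± 0.59). *OsGNC* had the same order, at 27.5 ± 2.03, 14.2 ± 1.12, 0.75 ± 0.14 and 0.35 ± 0.15 CPM, and for both genes no neighbouring groups overlapped. For *OsGLK2* every pair of neighbours overlapped, from 16.0 ± 0.57 CPM in *Oslec1-1* at LE to 10.01 ± 2.76 CPM in the wild type at EE. *Cga1* was highest in the wild type at LE (8.34 ± 0.70 CPM) and lowest, apart from the other 3 groups, in the wild type at EE (3.75 ± 0.88 CPM).

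Between the stages, *OsGLK1* and *OsGNC* rose in the mutant and *Cga1* rose in the wild type, and the fitted folds of *OsGLK1* and *OsGNC* were 1.90 and 2.18 in the wild type, where they did not pass, against 1.59 and 1.92 in the mutant. The EE and LE libraries carry different library codes, whose meaning the labels do not give, so stage and whatever the codes stand for cannot be told apart. These comparisons share their libraries with those of the genotypes. In *Oslec1-1*, *OsGLK1* rose 1.59-fold from EE to LE (log2 fold change 0.67, SE 0.12, adjusted *p* = 0.00177) and *OsGNC* 1.92-fold (0.94, SE 0.10, adjusted *p* = 8.82e-05). In the same embryos Os02g0203000 fell by 0.92 (SE 0.23, adjusted *p* = 0.00805) and Os01g0174000 fell by 0.75 (SE 0.11, adjusted *p* = 0.000537) on the log2 scale. The log2 fold changes of *OsGLK2* (0.13), *Cga1* (-0.24) and Os06g0601500 (0.12) did not pass, so 2 of 7 rose and 2 fell, where 30% of the 24491 genes tested rose and 29.1% fell. None was a DEG (0 of 7), where 6.2% of genes were upregulated and 4.94% downregulated DEGs.

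In the wild type, *Cga1* rose 2.20-fold from EE to LE (log2 fold change 1.14, SE 0.21, adjusted *p* = 0.00162). Os01g0174000 fell by 0.51 on the log2 scale (SE 0.16, adjusted *p* = 0.0236), although its ranges overlapped, and with library size alone the value was 0.06. The call was also lost without wild type EE replicate 1 or 3 or LE replicate 2 (adjusted *p* between 0.0904 and 0.113). *OsGLK1* (log2 fold change 0.93, adjusted *p* = 0.0552) and *OsGNC* (1.13, adjusted *p* = 0.0603) did not pass on these 6 libraries, but passed in the fit on all 12 (adjusted *p* = 0.00865 and 0.0085) and without wild type EE replicate 2 (adjusted *p* = 0.0106 and 0.046). *OsGNC*, at 3 to 6 counts in the wild type at EE, passed the filter only through libraries where it is higher. Its calls here add nothing to the counts. *OsGLK2* (0.42) and Os02g0203000 (-0.26) did not pass, although *OsGLK2* did with library size alone (0.98, adjusted *p* = 0.0148), with limma and 0.1 or 1 added (0.94 and 0.75, adjusted *p* = 0.0262 for each) and without LE replicate 1 (adjusted *p* = 0.0385), and Os06g0601500 was too rare to test. Of 6 members tested 1 rose and 1 fell, where 29.3% of the 22129 genes tested rose and 29.1% fell (6491 and 6434 genes, or 12370 and 3177 with library size alone). Again 0 were DEGs, where 7.08% of genes were upregulated and 6.11% downregulated DEGs.

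**Figure D5:**
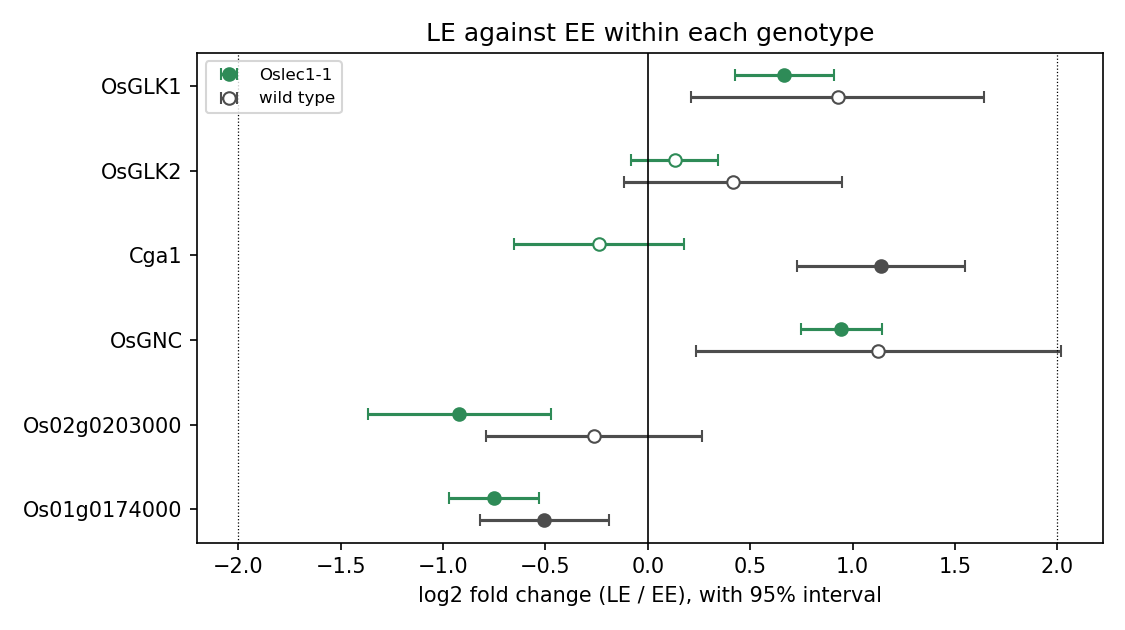
Log2 fold change of LE over EE (horizontal axis) for 6 regulators (vertical axis) in *Oslec1-1* (green) and the wild type (grey), with 95% intervals; filled points passed an adjusted *p* of 0.05 and dotted lines mark a log2 fold change of 2 in either direction. *Cga1* is at 1.14 in the wild type and -0.24 in *Oslec1-1*, and Os06g0601500 is left out because it was not tested in the wild type.

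Genes for light-harvesting proteins, the antenna that binds chlorophyll and a known target class of GLK factors, were taken as the 14 genes that the study lists under light harvesting in photosystem I. The study chose this list on genes upregulated at EE, so its direction at EE is not independent evidence. Their summed level at EE lay between 5.64 and 6.85 CPM in wild type libraries and between 655 and 770 CPM in mutant libraries, and at LE between 19.5 and 22.2 and between 686 and 847 CPM. All 14 rose at EE, where 30.3% of genes tested did, and 13 of 14 at LE, where 25.6% did, with a median log2 fold change at LE of 5.20, against 0.02 over all genes tested. Of the 14, 8 passed the filter on low counts in the wild type libraries alone and 14 in each genotype fit. The others were thus tested through mutant libraries in which they are high, and the LE share is a description, not a test. In *Oslec1-1*, 5 of the 14 rose and 5 fell from EE to LE, near the 30% and 29.1% of all genes tested. In the wild type 6 of the 8 tested rose and 0 fell, where 29.3% of genes tested rose and 29.1% fell. Genes rare at EE could enter that fit through the LE libraries, so this share too is a description, not a test. The 3 most abundant were Os09g0346500, Os01g0600900 and Os06g0320500. Os09g0346500 had 0.18 ± 0.09 CPM in the wild type and 117 ± 17.4 CPM in *Oslec1-1* at EE, and 3.52 ± 1.15 against 169 ± 24.5 CPM at LE. In the wild type the means of the others were lower at LE than at EE. Os01g0600900 had 0.38 ± 0.20 against 75.6 ± 0.44 CPM at EE and 0.069 ± 0.037 against 120 ± 11.7 CPM at LE. Os06g0320500 had 0.19 ± 0.20 against 85.3 ± 11.5 CPM at EE and 0.014 ± 0.024 against 71.7 ± 9.37 CPM at LE.

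Transcripts of 30 storage protein genes, listed by the study under nutrient reservoir activity and likewise chosen at EE, moved with the genotype too. At EE their sum lay between 6612 and 8412 CPM in wild type libraries and between 54437 and 58108 CPM in mutant libraries, with all 30 rising, against 30.3% of genes tested. At LE it lay between 81.4 and 212 CPM and between 161 and 1133 CPM, where the groups overlapped and 16 of 25 tested rose, against 25.6% of genes tested. In *Oslec1-1* 28 of the 30 fell from EE to LE, against 29.1% of genes tested. The fall was shared by the wild type, where 24 of 25 tested fell, against 29.1% of genes tested. The list was chosen on genes high in *Oslec1-1* at EE, which favours a fall from EE in the mutant. In the wild type, genes low at LE could enter the fit through the EE libraries. Both shares are thus a description, not a test. The 3 most abundant were Os01g0762500, Os10g0400200 and Os02g0453600, and none of the 30 was at 0 in every library of *Oslec1-1*, whereas 2 were in the wild type at each stage. The part of these 30 genes in the results of the regulators was not tested. Whether their transcripts came from embryo cells or from other tissue of the seed was not tested either. By electron microscopy at EE, the study saw lipid bodies and starch grains in the wild type and reports major storage products as nearly absent from mutant embryos.

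The genes most like *OsGLK1* were those with the smallest root mean square distance of centred log2 CPM over the 12 libraries, among 24903 genes. They were Os03g0142200 (0.321), Os02g0231700 (0.339) and Os08g0417000 (0.366). The last of these was at 1.09 ± 0.39 and 20.5 ± 2.47 CPM in the wild type and *Oslec1-1* at EE, and at 3.27 ± 0.16 and 26.9 ± 1.99 CPM at LE, close to the levels of *OsGLK1*. The first 2 are rare genes, with at most 1.87 and 2.47 CPM on average in any group. The genes most like *OsGNC* were Os12g0203200 (0.372), Os03g0309250 (0.389) and Os10g0536100 (0.441). Os12g0203200 was at 0.28 ± 0.05 and 10.6 ± 1.35 CPM in the wild type and *Oslec1-1* at EE, and at 0.61 ± 0.12 and 21.1 ± 1.56 CPM at LE. Of the members themselves, Os06g0601500 was 77th and *OsGNC* 296th in likeness to *OsGLK1*, and *OsGLK1* was 94th in likeness to *OsGNC*, whereas *OsGLK2* was 5713th in likeness to *OsGLK1* and *Cga1* 7438th in likeness to *OsGNC*. The distances share the libraries and their scaling and are given as a description.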

How the data were processed

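Polyadenylated RNA of 12 embryo libraries was sequenced after TruSeq preparation. The authors trimmed reads with Trimmomatic 0.36, mapped them to IRGSP-1.0 with HISAT2 2.1.0 and deposited whole-number counts per gene without normalization. The counting program is not given in the sources used here. The FPKM values of each library, which the authors made with StringTie 1.3.4d, were used for order between genes and for alternatives, and the TPM and coverage values the authors deposited beside them were not used. An FPKM of 0 can accompany a few counts.

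Counts were fitted in R 4.3.3 with edgeR 4.0.16 (filterByExpr, TMM, quasi-likelihood test, Benjamini-Hochberg over all genes), by genotype within each stage, by stage within each genotype, and as an interaction on all 12 libraries. Standard errors were the log2 fold change over the root of the *F* statistic, and 95% intervals are 1.96 of them. Alternatives were DESeq2 1.42.0, scaling by RLE, by library size alone or by TMM with the 50 most abundant genes left out, no filter, limma 3.58.1 on log2(FPKM + 0.1) and log2(FPKM + 1) with an FPKM of at least 0.5 in 3 libraries, a replicate block, all 12 libraries, and each library left out. Ratios by FPKM were added after seeing the data. The edgeR fits were tested on simulated data. Figures used Python 3.11.15 and matplotlib 3.10.9.

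Members and lists were chosen with earlier results of these data known. All 7 members were named, and of each list the 3 genes with the highest mean CPM. Likeness used log2 CPM with a prior count of 2, which compresses rare genes. *OsLEC1*, genes of chlorophyll synthesis and light signalling, other GATA genes, embryo markers and promoter sequences were not analysed here, because no annotation used here pairs them with the identifiers. For the same reason the embryo label was not checked against defining markers.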

Additional observations from a re-analysis of the deposited data

Results flagged for a closer look

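The effect of *Oslec1-1* on *Cga1* differed between the stages. It was 0.96 at EE and -0.40 at LE on the log2 scale, a difference of -1.39 in the interaction test of edgeR on all 12 libraries (adjusted *p* = 0.00417). *Cga1* was higher in *Oslec1-1* in 3 of 3 libraries at EE and lower in 3 of 3 at LE than every wild type library of the stage. The call at LE was kept in only 2 of 9 alternatives and in 1 of 6 fits leaving out a library. The call at EE was lost without wild type EE replicate 1 (adjusted *p* = 0.0525 in edgeR).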

How the results depend on the processing

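The rises of *OsGLK1* and *OsGNC* in *Oslec1-1* at both stages and of Os02g0203000 at EE, and the *Cga1* difference between stages, kept their direction and call in every alternative that gave a value and without each library. The *Cga1* difference lay between -2.07 and -1.36 over the alternatives and between -1.59 and -1.14 on leaving out each library. The numbers of members called were 5 at EE, 5 at LE, 2 in the wild type between stages, 4 in *Oslec1-1* between stages and 1 for the difference of effects. At EE 6 were called with library size alone, DESeq2, no filter and both limma settings, but the added member was not the same. With library size alone and limma it was Os01g0174000, in the direction opposite to the main fit. With DESeq2 and no filter it was Os06g0601500, which the main fit did not test. At LE 4 were called with DESeq2, no filter, the replicate block and all 12 libraries. With library size alone they were 3 at LE, 4 in the wild type and 4 for the difference. With limma and 0.1 or 1 added they were 2 and 2 at LE, 3 and 3 in the wild type, and 2 and 3 for the difference. With all 12 libraries 4 were called in the wild type. Leaving out each library gave 4 to 6 at EE, 3 to 5 at LE, 1 to 4 in the wild type, 4 to 4 in *Oslec1-1* and 1 to 2 for the difference.

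Directions that turned were those of small or poorly counted differences. With library size alone, limma with 0.1 and limma with 1, Os01g0174000 was at 0.485, 0.488 and 0.453 at EE and at 0.0635, 0.0938 and 0.0846 between stages in the wild type, and Os02g0203000 at 0.296, 0.0524 and 0.0222 between stages in the wild type. The shift of the median of all genes by 0.68 at EE and 0.57 between stages in the wild type with library size alone is part of how that alternative is built. The difference of effects of Os06g0601500 was 0.0633 with DESeq2, 0.317 and 0.114 with limma and between -2.17 and 0.119 on leaving out each library (0.119 without wild type LE replicate 1). That of *OsGNC* was 0.561 with limma and 1 added (adjusted *p* = 0.00752), and between -0.588 and 0.0769 on leaving out each library (0.0769 without wild type EE replicate 1). Wild type FPKM of *OsGNC* was at most 0.16 at EE and 0.375 at LE, below the added 1. Between stages in *Oslec1-1*, *Cga1* lay between -0.42 and 0.00364 (the latter without EE replicate 1), and Os06g0601500 between -0.227 and 0.416 (-0.227 without EE replicate 2, -0.213 without LE replicate 3). The cause was not tested.

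Over all genes, limma with 1 added called 1939 DEGs against 3417 at EE, 920 against 2293 at LE, 1336 against 2918 in the wild type and 1352 against 2728 in *Oslec1-1*. For the difference of effects, library size alone called 12728 genes and limma 13791 and 14219, against 8321. Replicate numbers showed no pairing of the libraries at EE, with correlations of same-numbered deviations of 0.0723, -0.0224 and -0.0521 and of different-numbered ones between -0.0525 and 0.0696. At LE the same-numbered correlations were 0.369, -0.0198 and 0.195 and the different-numbered ones between -0.405 and 0.292. These values do not settle whether the LE libraries were paired. In the fit with the replicate block, *Cga1* at LE was at -0.40 with an adjusted *p* of 0.0517, and no other call on a member changed. With FPKM in place of counts, the log2 difference between genotypes was 3.27 at EE and 3.05 at LE for *OsGLK1* over *OsGLK2*, 5.80 at LE for *OsGNC* over *Cga1*, and 1.33 at EE and 1.12 at LE for Os02g0203000 over Os01g0174000. Depth limits the values of *OsGNC* in the wild type at EE (3 to 6 counts) and of Os06g0601500 in the wild type (0 or 1 count).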
